A study of Homo sapiens with 4 samples.

Results

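The 10 genes described here make the sugar donor of N-glycosylation and carry out the transfer of the glycan to protein. They are GFPT1, GNPNAT1, PGM3 and UAP1, the 4 enzymes of the hexosamine pathway, and STT3A, STT3B, RPN1, RPN2, DDOST and DAD1, 6 subunits of the oligosaccharyltransferase (OST). They were chosen by name from the gene table of SKBR3 cells, with no threshold on their values, and all 10 were found among its 56271 rows. The hexosamine pathway turns fructose-6-phosphate into UDP-GlcNAc, the nucleotide sugar that starts every N-glycan and also feeds O-GlcNAc on nuclear and cytosolic proteins. OST sits in the membrane of the endoplasmic reticulum (ER) and moves a finished oligosaccharide from its lipid carrier, dolichol, to asparagines of nascent proteins. Cells hold 2 forms of OST. The form built on STT3A works beside the translocon while the protein is made, and the form built on STT3B glycosylates sites that the first has missed.

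SKBR3 is an established HER2-positive breast cancer line. Poly-A RNA was sequenced from 2 libraries of cells expressing eGFP alone (eGFP control) and from 2 libraries of cells overexpressing VIRMA, a scaffold of the complex that writes N6-methyladenosine on RNA. The study's methods describe a lentiviral vector with a human ubiquitin C promoter in both groups, carrying HA-tagged full-length VIRMA with eGFP or eGFP only, and sorting of eGFP-positive cells, so each group is a pooled transduced population rather than a clone. The labels attach the same low-oxygen culture text to all 4 libraries, and at what oxygen level the cells grew is therefore uncertain. The comparison asks how the transcripts of this pathway differ when VIRMA is raised.

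The libraries held 81446932 to 86375474 counts. VIRMA, listed as KIAA1429, rose from 710 and 682 counts in the control libraries to 3437 and 3460 in the VIRMA-overexpressing libraries and was 2.29 higher on the log2 scale, so the target gene matched the labels. All 7 epithelial markers looked at had counts in every library, but CDH1 was near 0, with 5 to 33 counts. The summed level of the 7 was 28090 and 28580 CPM (counts scaled to a common library size) in the controls and 26440 and 26710 CPM with VIRMA. The 14 markers of blood and connective tissue summed to 40.27 and 49.78 CPM in the controls and to 17.28 and 18.33 CPM with VIRMA, and 0 to 1 of them in the controls and 4 to 5 with VIRMA were at 0. Without HBB, which was read 2137 and 1543 times in the controls and never with VIRMA, the sums were 23.83 and 21.66 CPM against 17.28 and 18.33 CPM. Single markers did not all follow these sums. CDH5 went from 461 and 415 counts in the controls to 598 and 632 with VIRMA, and CD3E from 73 and 60 to 87 and 90. COL1A1 fell from 1119 and 1092 to 713 and 741 counts. Of the epithelial markers, KRT7 rose from 2841 and 2781 to 3898 and 4004 CPM. KRT8 fell from 8398 and 8337 to 5845 and 5903 CPM. The mitochondrial share of counts was 11.35% and 11.6% in the controls and 12.83% and 12.81% with VIRMA. The part of these differences in the results below was not tested, and in bulk RNA fewer cells of a type and less RNA per cell cannot be told apart.

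The promoters of the 4 hexosamine genes are shown first, because 2 of these genes (GFPT1 and PGM3) rose and their neighbours in the pathway did not rise with them to the same degree. The stretches are the 250 bases before the RefSeq start site (GRCh38.p14), read 5′ to 3′ on the strand of the gene. Capitals mark CCACG and CCAAT on either strand (CGTGG and ATTGG when read on the other strand). CCACG and CCAAT are the outer parts of the ER stress element, the site through which ATF6 and XBP1 act on genes of the unfolded protein response, and they were searched because the study concerns that response.
GFPT1 promoter, chr2:69387228-69387477, minus strand: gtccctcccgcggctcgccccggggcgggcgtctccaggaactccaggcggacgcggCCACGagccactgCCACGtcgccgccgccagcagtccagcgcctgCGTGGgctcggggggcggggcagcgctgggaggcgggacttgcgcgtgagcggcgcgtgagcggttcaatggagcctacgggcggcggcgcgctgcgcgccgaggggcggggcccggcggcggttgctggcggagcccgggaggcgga
PGM3 promoter, chr6:83193266-83193515, minus strand: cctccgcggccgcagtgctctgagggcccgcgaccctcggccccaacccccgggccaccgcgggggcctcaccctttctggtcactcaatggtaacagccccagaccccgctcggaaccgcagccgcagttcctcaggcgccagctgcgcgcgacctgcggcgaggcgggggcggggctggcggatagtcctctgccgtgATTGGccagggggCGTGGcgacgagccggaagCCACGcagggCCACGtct
GNPNAT1 promoter, chr14:52791608-52791857, minus strand: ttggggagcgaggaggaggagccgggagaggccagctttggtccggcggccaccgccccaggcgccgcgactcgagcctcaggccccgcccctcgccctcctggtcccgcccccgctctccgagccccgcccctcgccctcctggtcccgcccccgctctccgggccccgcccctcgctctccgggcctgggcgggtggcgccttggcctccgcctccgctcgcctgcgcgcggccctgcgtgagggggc
UAP1 promoter, chr1:162561281-162561530, plus strand: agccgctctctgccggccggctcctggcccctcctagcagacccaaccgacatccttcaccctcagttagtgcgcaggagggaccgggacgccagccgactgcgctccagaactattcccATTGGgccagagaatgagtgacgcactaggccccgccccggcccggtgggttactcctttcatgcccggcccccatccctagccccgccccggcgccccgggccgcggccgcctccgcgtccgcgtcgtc

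RefSeq promoters running from 250 bases before to 50 bases after the start were at hand for 8 of the 10 genes, all but STT3B and RPN1. GFPT1 carried CCACG at 3 places, at positions -193, -180 and -148 from the start site. PGM3 also carried it at 3 places, at positions -37, -18 and -8, with 1 CCAAT at -50. A window with 3 or more CCACG matches was found in 3.35% of 35116 promoters, whatever their content of G and C. This count was looked up after the 2 genes' matches had been seen. G and C made up 78.0% of the window of GFPT1, 71.7% of PGM3, 79.3% of GNPNAT1 and 70.7% of UAP1. GNPNAT1 had 1 match, at position 28 after the start site and so outside the stretch printed, DDOST had 1, and UAP1, STT3A, RPN2 and DAD1 had none in this window. CCACG on either strand was thus held by 4 of 8 promoters, against 38.1% of all promoters, and CCAAT by 5 of 8 (PGM3, UAP1, STT3A, DDOST and DAD1), against 34.6%. The complete ER stress element (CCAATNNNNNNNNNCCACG), its second form (ATTGGNCCACG), the core of the unfolded protein response element (TGACGTGG) and the C/EBP-ATF response element (TGATGNAA) were held by 0 of the 8 windows, against 0.0769%, 0.0541%, 0.729% and 3.62% of all promoters. The 2 ER stress elements contain CCACG and the core contains its reverse, so these searches overlap. A match is a match of letters only, and its absence says only that the letters are not in this window. The outermost exon of PGM3 in the deposited annotation began 671 bases upstream of the RefSeq start used, so its printed stretch lies within the span of the gene there. For GFPT1, GNPNAT1 and UAP1 the starts differed by 25 to 61 bases.

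In VIRMA-overexpressing cells, 2 of the 4 hexosamine enzymes rose more than 2-fold and the other 2 moved little. GFPT1, the first and rate-limiting step, was 2.54-fold higher, and PGM3, the third step, 2.27-fold higher. UAP1, the last step, was 1.10-fold higher, and GNPNAT1, the second step, differed by 1.01-fold. Levels below are given in CPM after scaling by the trimmed mean of M-values (TMM), differences are log2 fold changes of VIRMA over control from the quasi-likelihood test of edgeR, and p-values were adjusted by Benjamini-Hochberg over the 12205 genes whose RPKM (reads scaled to library size and exonic length) exceeded 1 in 2 or more libraries. A gene was called at an adjusted p below 0.05. All 10 genes passed the RPKM filter.

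GFPT1 (chr2:69319769-69387254, minus strand) joins fructose-6-phosphate with the amino group of glutamine and sets the flow into the pathway. Its level was 56.07 and 58.08 CPM in the control libraries and 146.1 and 144.3 CPM in the VIRMA-overexpressing libraries. Both VIRMA libraries lay far above both controls. The group means were 57.08 ± 1.43 CPM (SD, n = 2) and 145.2 ± 1.29 CPM (SD, n = 2), which is 1.35 on the log2 scale (SE 0.0375, 95% interval 1.27 to 1.42; edgeR adjusted p = 1.14e-26). This difference stood at percentile 98.1 of the log2 fold changes of all tested genes. GFPT2, its paralogue, was counted 186 times in each control and 184 and 195 times with VIRMA, and at 0.471 and 0.473 RPKM on average it was below the RPKM filter.

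PGM3 (chr6:83161150-83193936, minus strand) moves the phosphate of N-acetylglucosamine from carbon 6 to carbon 1. It had 19.57 and 19.47 CPM in the controls and 46.02 and 42.75 CPM with VIRMA, and the groups did not overlap. The means were 19.52 ± 0.0692 CPM (SD, n = 2) and 44.38 ± 2.31 CPM (SD, n = 2), and the log2 fold change was 1.18 (SE 0.0588, 95% interval 1.07 to 1.30; edgeR adjusted p = 2.87e-19), at percentile 97.0. PGM3 shares 1087 exonic bases, 14.82% of its exonic length, with DOPEY1 on the opposite strand. DOPEY1 was counted 431 and 389 times in the controls and 669 and 719 times with VIRMA, below the RPKM filter. RWDD2A lies within the span of PGM3 on the opposite strand with 0 shared exonic bases, and went from 451 and 545 counts to 1085 and 1050 (log2 fold change 1.08, SE 0.106; edgeR adjusted p = 3.23e-11). The libraries were stranded, but whether the counting used strand is not stated, so reads of PGM3 and DOPEY1 in the shared bases cannot be told apart. PGM3 itself was counted 1612 and 1614 times in the controls and 3902 and 3539 times with VIRMA, and the part of the shared bases in this difference was not tested.

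GNPNAT1 (chr14:52775194-52791668, minus strand) acetylates glucosamine-6-phosphate, the product of GFPT1. Its level was 36.64 and 36.14 CPM in the controls and 37.69 and 35.72 CPM with VIRMA, so the groups overlapped. The log2 fold change was 0.01 (SE 0.0531, 95% interval -0.10 to 0.12; edgeR adjusted p = 0.843), and the interval runs from 0.936 to 1.09 times the control level. A gene on the opposite strand that covers 35.57% of its exonic length, RP11-589M4.1, had 0 counts in all 4 libraries. All 1426 exonic bases of RP11-589M4.1 lie within those of GNPNAT1. Whether the counting used strand is not stated, so the 0 counts do not show that RP11-589M4.1 was silent. The effect of the shared bases on the GNPNAT1 count was not tested.

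UAP1 (chr1:162561506-162599842, plus strand) joins N-acetylglucosamine-1-phosphate to UTP and so finishes UDP-GlcNAc. It had 65.06 and 58.92 CPM in the controls and 68.13 and 68.17 CPM with VIRMA. Both VIRMA libraries lay above both controls, but the higher control lay nearer to them than to the other control. The log2 fold change was 0.14 (SE 0.0442, 95% interval 0.05 to 0.23; edgeR adjusted p = 0.00646). This call rested on the second control library, without which the log2 fold change was 0.07 with an adjusted p of 0.25. It was also lost with a looser filter on low counts (0.09, adjusted p = 0.107) and without a filter (0.10, adjusted p = 0.0764).

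The unequal change also shows in ratios taken within each library, which do not depend on how libraries are scaled. The GFPT1 to GNPNAT1 ratio of RPKM was 0.692 and 0.727 in the controls and 1.75 and 1.83 with VIRMA, a 2.52-fold difference, so the order of these 2 transcripts was exchanged. The PGM3 to UAP1 ratio was 0.141 and 0.155 in the controls and 0.316 and 0.294 with VIRMA. PGM3 and GFPT1 kept a nearer relation to each other, at a PGM3 to GFPT1 ratio of 0.422 and 0.405 in the controls and 0.381 and 0.358 with VIRMA. PGM3 stayed the lowest of the 4 enzymes per length in both groups, at 2.66 RPKM in the controls and 6.05 RPKM with VIRMA, and UAP1 the highest, at 18.0 and 19.8 RPKM. For each ratio the exact two-sided permutation p was 0.333, the smallest that 2 libraries against 2 can give.

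**Figure D1:**
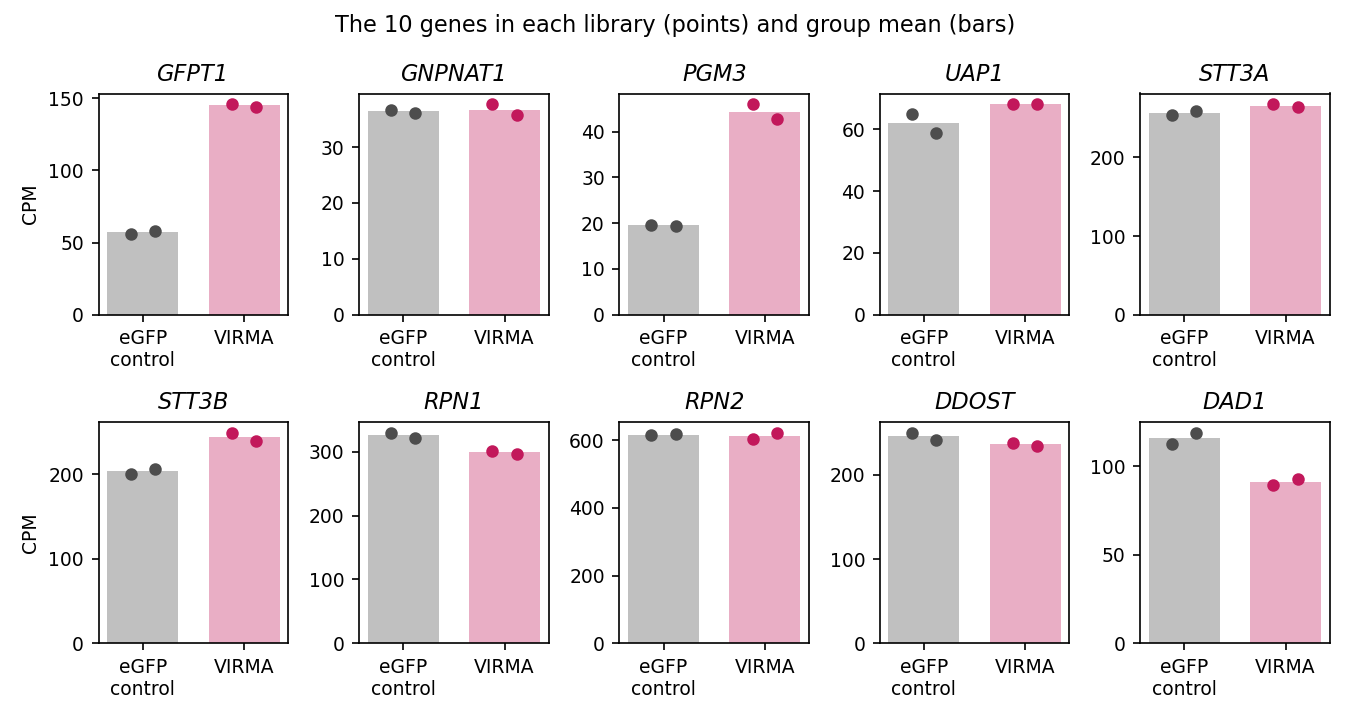
Level of each gene in CPM after TMM scaling (y axis, from 0, a scale of its own in each panel) in the 2 eGFP control and the 2 VIRMA-overexpressing libraries; points are libraries and bars are group means. GFPT1 and PGM3 rise from 57.08 to 145.2 CPM and from 19.52 to 44.38 CPM, while the other 8 genes differ by far less.

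The OST subunits moved little. None of the 6 changed by more than 2-fold in either direction. STT3B rose 1.20-fold, DAD1 fell to 0.787 and RPN1 to 0.919 of the control level, and STT3A, RPN2 and DDOST did not pass the test, with ratios of VIRMA to control of 1.04, 0.993 and 0.961. The median log2 fold change was -0.03 over the 6 subunits and 0.01 over all tested genes, and that of the subunits turned to 0.04 and 0.05 when libraries were scaled by upper quartiles or by their totals.

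The catalytic subunits STT3A and STT3B, each the active centre of its own OST form, did not give the same call. STT3B (chr3:31532638-31637622, plus strand) had 199.7 and 206.5 CPM in the controls and 249.2 and 239.6 CPM with VIRMA, without overlap (log2 fold change 0.27, SE 0.0323, 95% interval 0.20 to 0.33; edgeR adjusted p = 4.03e-09). STT3A (chr11:125591712-125625215, plus strand) had 254.0 and 258.5 CPM in the controls and 267.9 and 263.7 CPM with VIRMA. The STT3A groups did not overlap either, but the difference was small and did not pass the test (log2 fold change 0.05, SE 0.0306, 95% interval -0.01 to 0.12; edgeR adjusted p = 0.124), whereas scaling by upper quartiles (0.12) or by library totals (0.14) took it past. The STT3A to STT3B ratio of RPKM fell from 0.868 and 0.854 in the controls to 0.733 and 0.751 with VIRMA, a log2 difference of -0.21, and the exact two-sided permutation p was again the smallest possible, 0.333. STT3A shares 80 exonic bases with CHEK1 on the same strand, 1.09% of its exonic length; CHEK1 went from 1255 and 1331 counts to 766 and 737.

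RPN1 and RPN2, the ribophorins, and DDOST are membrane subunits common to both forms of OST, and RPN1 helps to bring client proteins to it. RPN1 (chr3:128619970-128681075, minus strand) had 330.4 and 321.6 CPM in the controls and 301.6 and 297.5 CPM with VIRMA, without overlap (log2 fold change -0.12, SE 0.0302, 95% interval -0.18 to -0.06; edgeR adjusted p = 0.000532). The RPN1 call was lost with upper-quartile factors (-0.05, adjusted p = 0.129) and with library totals (-0.04, adjusted p = 0.253). RPN2 (chr20:37178410-37241623, plus strand) was the most abundant of the 10 transcripts per length. It had 616.1 and 617.3 CPM in the controls and 602.3 and 622.7 CPM with VIRMA, with both controls between the VIRMA values (log2 fold change -0.01, SE 0.028, 95% interval -0.07 to 0.05; edgeR adjusted p = 0.766).

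DDOST (chr1:20651767-20661544, minus strand) had 250.5 and 241.6 CPM in the controls and 238.1 and 234.7 CPM with VIRMA, without overlap, and missed the threshold (log2 fold change -0.06, SE 0.0314, 95% interval -0.12 to 0.01; edgeR adjusted p = 0.0971). It shares 427 exonic bases, 15.69% of its exonic length, with PINK1-AS on the same strand, which had 154 to 204 counts against 19428 to 20636 for DDOST. The DDOST call depended on the setting, since it passed with 3 other filters on low counts and without the second control library (-0.08, adjusted p = 0.0428), and its sign turned under upper-quartile factors (0.01) and library totals (0.03).

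DAD1 (chr14:22564905-22589269, minus strand), a small membrane subunit whose loss in mammalian cells leads to apoptosis, fell the most of the 10 genes. Its level was 112.6 and 119.1 CPM in the controls and 89.5 and 93.01 CPM with VIRMA. Both VIRMA libraries lay below both controls, and the log2 fold change was -0.35 (SE 0.0378, 95% interval -0.42 to -0.27; edgeR adjusted p = 4.54e-10), at percentile 22.9 of all tested genes. The DAD1 to RPN2 ratio of RPKM was 0.638 and 0.673 in the controls and 0.518 and 0.521 with VIRMA.

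Across the 10 genes, 4 (GFPT1, PGM3, UAP1 and STT3B) were called higher, where 35.1% of the 12205 tested genes were, and 2 (RPN1 and DAD1) were called lower, where 35.9% were. The counts at the adjusted p alone were therefore near or below the background of this comparison. Under upper-quartile factors and library totals 6 of the 10 were higher (STT3A and RPN2 added) and 1 lower. The background moved as well, with 4992 and 5092 of the 12205 tested genes then higher and 3693 and 3590 lower. Past the study's thresholds, which add a log2 fold change above 1, 2 of the 10 genes were higher (GFPT1 and PGM3), against 4.52% of all tested genes. Both also passed when the fold itself was tested against 2. The 10 genes were chosen with earlier results of these data known, so the share of all tested genes is given for description only. The median log2 fold change over the 10 genes was 0.03, and that of the 4 hexosamine enzymes, 0.66, lies between the pair that rose and the pair that moved little and is the value of none of them.

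**Figure D2:**
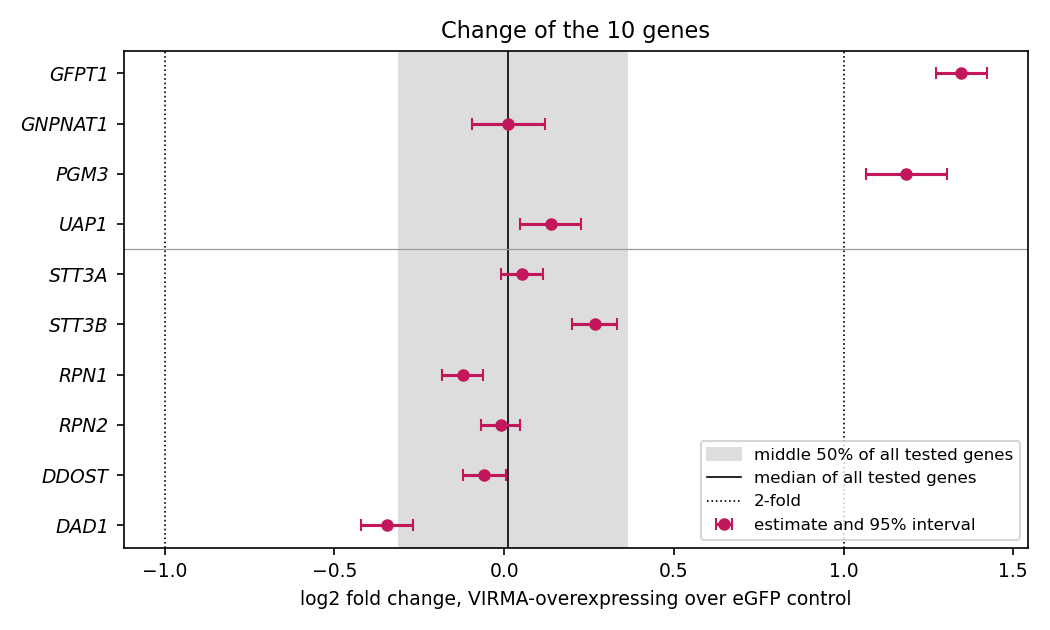
Log2 fold change of VIRMA-overexpressing over eGFP control cells (x axis) for the 10 genes (y axis; hexosamine enzymes above the line, OST subunits below); points are edgeR estimates and bars 95% intervals, the grey band holds the middle 50% of all tested genes (-0.31 to 0.36) and dotted lines mark 2-fold. GFPT1 and PGM3 lie past the 2-fold line, and of the OST subunits DAD1 alone has its estimate outside the band.

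Per length, the order of the transcripts in the controls was RPN2 (218.8 RPKM), DAD1 (143.4), DDOST (90.4), RPN1 (81.7), STT3B (40.5), STT3A (34.9), UAP1 (18.0), GNPNAT1 (9.08), GFPT1 (6.44) and PGM3 (2.66). The OST subunits were all above the hexosamine enzymes in both groups. With VIRMA, RPN2 stood at 217.3 RPKM, DAD1 at 112.9, DDOST at 86.9, RPN1 at 75.03, STT3B at 48.8, STT3A at 36.2, UAP1 at 19.8, GFPT1 at 16.4, GNPNAT1 at 9.16 and PGM3 at 6.05. In neither group did the 2 libraries of a gene overlap with those of its neighbour in the order, and the one exchange of places was that of GFPT1 and GNPNAT1.

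Of the other 6 OST subunits in the table, 3 were higher, 2 lower and 1 did not pass the test, where 35.1% of all tested genes were higher and 35.9% lower. MAGT1 and TUSC3 are alternative oxidoreductase subunits of the STT3B form. MAGT1 had 62.99 and 63.08 CPM in the controls and 85.44 and 86.09 CPM with VIRMA (log2 fold change 0.44; edgeR adjusted p = 2.33e-12), and TUSC3 had 31.37 and 34.33 CPM against 29.13 and 30.69 CPM (-0.14; edgeR adjusted p = 0.0414). The TUSC3 call was lost with DESeq2 (-0.14, adjusted p = 0.0796), with upper-quartile factors (-0.06), with library totals (-0.05), without the second control library (-0.07) and without the first VIRMA library (-0.10). OSTC and KRTCAP2, which join the STT3A form to the translocon, were both higher. OSTC had 92.26 and 93.56 CPM in the controls and 109.3 and 104.9 CPM with VIRMA (0.20; edgeR adjusted p = 7.95e-06), and KRTCAP2 had 8.45 and 10.45 CPM against 13.27 and 12.25 CPM (0.43; edgeR adjusted p = 0.000233). OST4, a very short subunit common to both forms, had 105.7 and 116.0 CPM in the controls and 75.23 and 75.76 CPM with VIRMA, the largest fall among the 12 subunits (-0.55; edgeR adjusted p = 1.55e-14). TMEM258, also common to both forms, had 72.93 and 81.83 CPM against 69.51 and 77.62 CPM (-0.07, edgeR adjusted p = 0.17). It passed the test as lower with no filter (-0.11, edgeR adjusted p = 0.0438). Without the first control library or the second VIRMA library its log2 fold change was -0.16 and -0.15.

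Set out by form of OST, a grouping made after these values had been seen, the calls fell as follows. Of the 3 subunits found only in the STT3A form (STT3A, OSTC, KRTCAP2), 2 rose and 0 fell. Of the 3 found only in the STT3B form (STT3B, MAGT1, TUSC3), 2 rose and 1 fell. Of the 6 common to both (RPN1, RPN2, DDOST, DAD1, OST4, TMEM258), 0 rose and 3 fell, with a median log2 fold change of -0.10; 35.1% of all tested genes rose and 35.9% fell. Under upper-quartile factors and library totals 1 of the 6 (RPN2) rose and 2 (DAD1, OST4) fell, while 5 fell with no filter and 4 with filterByExpr, with at least 10 counts in every library and without the first control, the second control or the second VIRMA library. The difference between the groups of subunits was not tested.

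**Figure D3:**
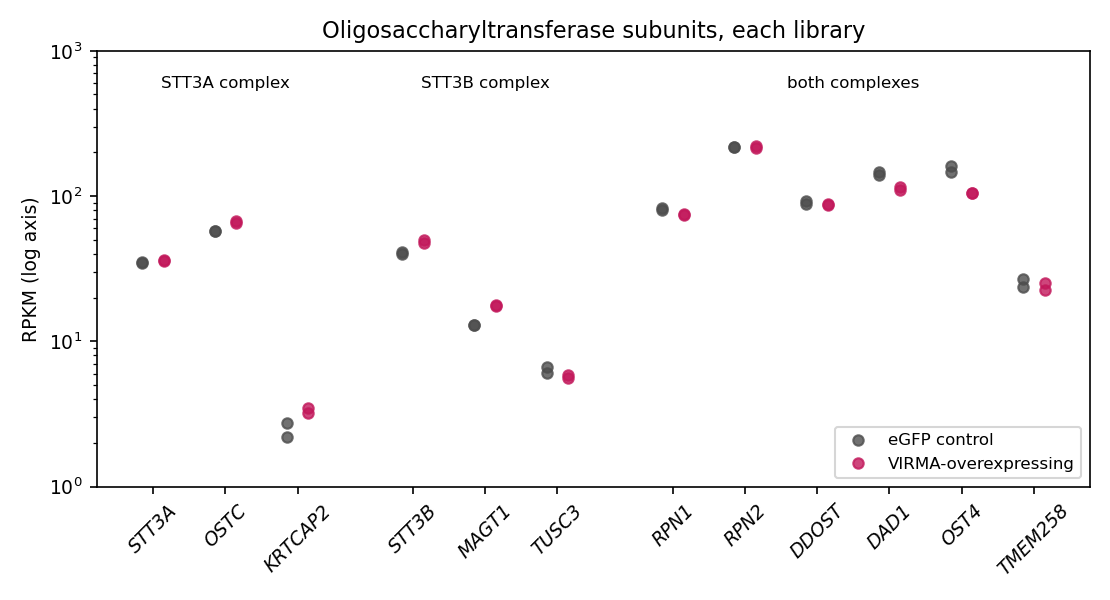
Level per length of the 12 OST subunits in RPKM (y axis, log scale) in each of the 2 eGFP control and 2 VIRMA-overexpressing libraries (points), set out by the form of OST that holds them. The 2 groups lie close together for every subunit, with the widest gap at OST4 (154.1 to 105.0 RPKM on average).

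The steps next to the hexosamine pathway did not rise with GFPT1 and PGM3 as a group. Of 7 other genes of UDP-GlcNAc synthesis, salvage and hexosamine breakdown, 4 were tested, of which 1 rose and 3 fell (35.1% and 35.9% of all tested genes), with a median log2 fold change of -0.20 that shrank to -0.13 and -0.11 under upper-quartile factors and library totals. NAGK, which returns N-acetylglucosamine from breakdown to the pathway upstream of PGM3, had 73.64 and 72.18 CPM in the controls and 101.5 and 102.3 CPM with VIRMA (0.48; edgeR adjusted p = 9.57e-14). The genes that fell were UAP1L1, a relative of UAP1 (-0.25), AMDHD2, which removes the acetyl group from N-acetylglucosamine-6-phosphate (-0.36), and GNPDA1, which converts glucosamine-6-phosphate back to fructose-6-phosphate (-0.14). The GNPDA1 call was lost with upper-quartile factors (-0.07), with library totals (-0.06) and without the first control (-0.12) or the second VIRMA library (-0.10).

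Among 16 genes that use or carry UDP-GlcNAc outside the ER, or act on what is made from it, 13 were tested. Of these, 4 rose and 5 fell, shares close to the 35.1% and 35.9% of all tested genes. Their median, -0.08, had no stable size, at -0.009 and 0.003 under upper-quartile factors and library totals, -0.14 and -0.13 with filterByExpr and no filter, and -0.14 and -0.04 without the first or the second VIRMA library. OGT, the enzyme that places O-GlcNAc on nuclear and cytosolic proteins, was the only one of them past both thresholds. It had 218.6 and 213.5 CPM in the controls and 519.1 and 507.4 CPM with VIRMA, a difference of 1.25 in log2 units (SE 0.0302; edgeR adjusted p = 1.5e-28), of a size between those of PGM3 and GFPT1. MGEA5 (OGA), which removes O-GlcNAc, rose as well, from 62.54 and 65.64 to 99.29 and 96.14 CPM (0.61; edgeR adjusted p = 6.85e-16), and SLC35A3, a Golgi UDP-GlcNAc carrier, by less (0.19). The lowest values were those of MGAT5, which branches N-glycans in the Golgi, at 28.41 and 27.18 CPM in the controls and 17.19 and 15.47 CPM with VIRMA (-0.77; edgeR adjusted p = 3.81e-12), CMAS, which activates sialic acid (-0.39), and the Golgi sugar carrier SLC35B4 (-0.39).

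The lipid-linked oligosaccharide, the substrate that OST transfers, is built by the ALG enzymes on dolichol. Of 19 genes of this assembly 15 were tested, 3 rose and 10 fell, against 35.1% and 35.9% of all tested genes, and the median was -0.30. Under upper-quartile factors and library totals 3 rose and 8 fell, with medians of -0.23 and -0.22. Of the 12205 tested genes, 4992 and 5092 then rose and 3693 and 3590 fell. The calls of DPAGT1 (-0.018 and -0.006) and DPM2 (-0.063 and -0.051) were lost under these scalings. With DESeq2 the DPAGT1 call was lost too (-0.09, adjusted p = 0.0611), and 9 of the 15 fell. When 1 library was left out, the median of the list ran from -0.31 to -0.24. With the 3 other filters, which admit more genes of the list, the median was -0.18, -0.17 and -0.16, while over the same 15 genes it was -0.34, -0.33 and -0.33. The lowest were ALG1, which adds the first mannose (26.24 and 24.61 CPM against 11.82 and 12.67 CPM; -1.05, edgeR adjusted p = 4.02e-15), MPDU1, needed for use of the mannose and glucose donors (72.88 and 70.74 CPM against 44.91 and 42.28 CPM; -0.72, edgeR adjusted p = 1.46e-16), and ALG14 (-0.46). The highest were ALG13, which with ALG14 adds the second N-acetylglucosamine from UDP-GlcNAc (20.53 and 20.32 CPM against 32.39 and 33.5 CPM; 0.69, edgeR adjusted p = 2.99e-12), ALG2 (0.20) and ALG12 (0.19). The 2 partners ALG13 and ALG14 thus moved in opposite directions. The ALG12 call was lost without the second control (0.15) or the first VIRMA library (0.12), and with 2 other filters on low counts. ALG10 and ALG10B, which are near-identical, were below the RPKM filter.

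Of 10 genes of dolichol and mannose supply 4 were higher and 4 lower, near the 35.1% and 35.9% of all tested genes. Their median of -0.02 turned to 0.06 and 0.07 under upper-quartile factors and library totals, and ran from -0.06 (second VIRMA library) to 0.06 (first VIRMA library) when 1 library was left out. GMPPA (0.62) and GMPPB (0.40), which make and regulate the making of GDP-mannose, and NUS1 (0.42), a subunit of the enzyme that makes the dolichol chain, were highest. DOLK, the dolichol kinase, was lowest, at 19.0 and 17.87 CPM in the controls and 9.68 and 10.05 CPM with VIRMA (-0.90; edgeR adjusted p = 6.54e-12), before SRD5A3 (-0.30) and DOLPP1 (-0.27).

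After transfer, the glycan is trimmed and read by the calnexin cycle, which folds glycoproteins. Of 11 genes 10 were tested, 8 rose and 1 fell, where 35.1% and 35.9% of all tested genes did, with a median of 0.28. With filterByExpr and with no filter 6 of the 10 rose, where 4816 of 20568 and 4883 of 33976 tested genes did. Without the second control or the second VIRMA library the median was 0.31 and 0.25. CALR, calreticulin, had 951.1 and 942.0 CPM in the controls and 1389 and 1392 CPM with VIRMA (0.56; edgeR adjusted p = 2.65e-20), and the folding sensors UGGT2 (0.44) and UGGT1 (0.38) followed. PRKCSH, the regulatory subunit of glucosidase II, fell from 412.2 and 423.5 to 318.0 and 311.1 CPM (-0.41, edgeR adjusted p = 1.42e-14). GANAB, its catalytic partner, was at -0.06 (edgeR adjusted p = 0.0628), and MAN1B1, which trims mannose, was at 0.10 (edgeR adjusted p = 0.0159). GANAB was called lower with DESeq2 (-0.06, adjusted p = 0.0378) and limma-voom (-0.06, adjusted p = 0.0326). It was also called lower with DESeq2 size factors, the 3 other filters and the replicate block, and 2 of the 10 genes then fell. The MAN1B1 call was lost without the second control (0.08) or the first VIRMA library (0.07), and with 3 other filters. Over the lists other than the 10 genes, 58 of 69 genes were tested, 23 rose and 25 fell, beside 35.1% and 35.9% of all tested genes, and the median was -0.08; 1 of them (OGT) was past both thresholds upwards and 1 (ALG1) downwards.

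**Figure D4:**
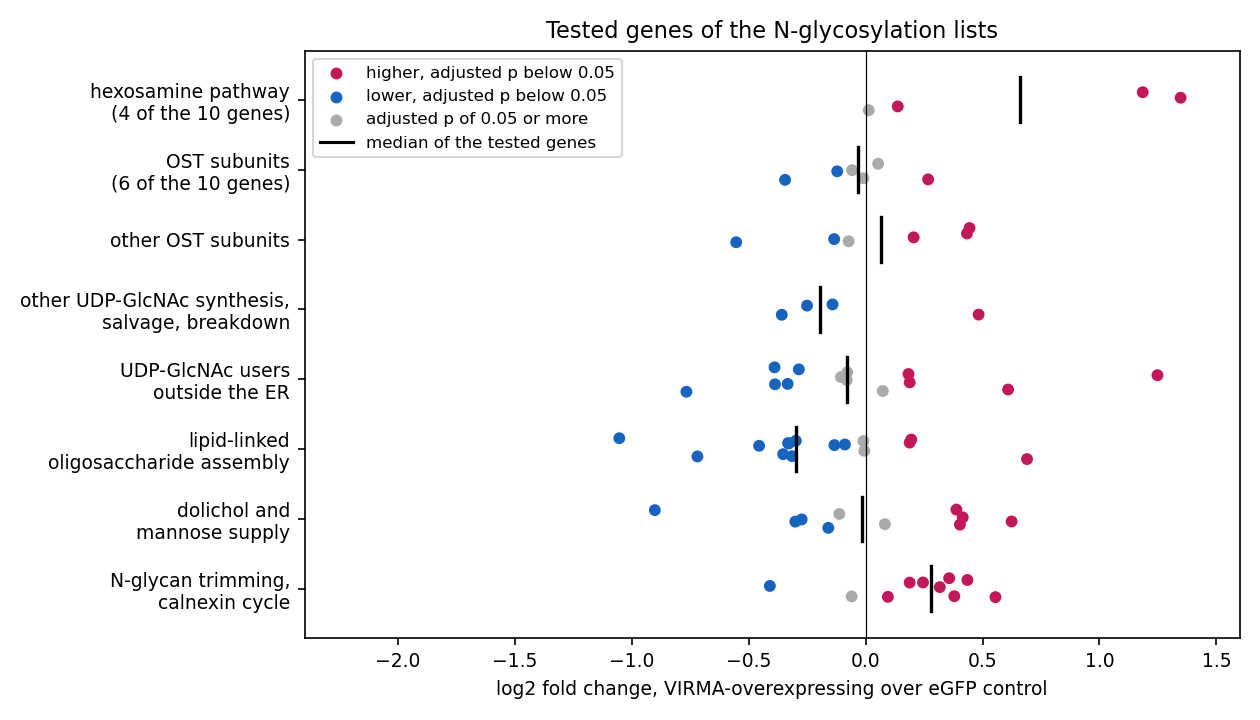
Log2 fold change of VIRMA-overexpressing over eGFP control cells (x axis) for each tested gene (points) of the hexosamine pathway, OST and the neighbouring lists (y axis); colour gives the call at an adjusted p of 0.05 and black bars the median of each list. GFPT1 and PGM3 (1.35 and 1.18) and OGT (1.25) stand to the right of every other gene shown, and ALG1 (-1.05) to the left.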

How the data were processed

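Poly-A RNA libraries of 2 eGFP control and 2 VIRMA-overexpressing SKBR3 samples were compared. The authors trimmed reads with Trimmomatic 0.39, aligned them with STAR 2.5.2a to hg38 and assigned them to genes with featureCounts. The deposited values are whole-number counts without normalization, with exon coordinates and exonic length. The kit was stranded; the strand setting of the counting and the treatment of reads with several alignments are not given in the sources used here. The VIRMA columns bear a number instead of the group name; they were taken as the group left over, and the VIRMA gene checks this.

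The levels given in RPKM and CPM were computed from the counts with TMM-scaled library sizes. For the filter, RPKM was computed with library totals and no TMM scaling. Genes with RPKM above 1 in at least 2 libraries (12205) were tested by quasi-likelihood in edgeR 4.0.16 (R 4.3.3), with no covariate besides group, and p-values were adjusted by Benjamini-Hochberg over all of them. Each SE follows from the F statistic, as the estimate over its root. An exact permutation p cannot go below 0.333 here. The script was tested on simulated counts. The alternatives were DESeq2 1.42.0, limma-voom (limma 3.58.1), 3 other scalings, 3 other filters, the replicate number as a block, other fold thresholds and leaving out each library. Replicates differed by more than sampling noise (chi-square per degree of freedom 7.87 and 6.18; biological coefficient of variation 3.93%). The methods call them biological duplicates, so p-values measure the spread between such duplicates, and VIRMA and any other difference between the 2 cell populations cannot be told apart.

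The 10 genes and the lists were chosen with earlier results of these data known. Of each other list, the 3 highest and 3 lowest tested genes were named, with every OST subunit. VIRMA and genes overlapping the exons of the 10 were also named. RWDD2A, GFPT2, DPAGT1, DPM2, ALG10 and ALG10B were added after their values were seen. So were HBB, CDH1, CDH5, CD3E, COL1A1, KRT7 and KRT8 among the cell type markers. Promoters came from RefSeq (GRCh38.p14) and matched hg38 at their coordinates. No protein sequences were used here.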

Additional observations from a re-analysis of the deposited data

How the results depend on the processing

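GFPT1 and PGM3 kept their direction and both thresholds under every alternative run, at log2 fold changes of 1.30 to 1.43 and 1.14 to 1.27, and at 1.32 to 1.37 and 1.13 to 1.24 when 1 library was left out. Upper-quartile factors and library totals moved the median of all genes by 0.07 and 0.08, which exceeds the changes of STT3A, RPN2 and DDOST. Of the 10 genes, 6 instead of 4 were then called higher and 1 instead of 2 lower. STT3A and RPN2 passed and RPN1 was lost. Under these scalings 4992 and 5092 of the 12205 tested genes were called higher and 3693 and 3590 lower. The hexosamine median became 0.73 and 0.74 and the OST median 0.038 and 0.049. RPN2 turned to 0.062 and 0.074 (edgeR adjusted p = 0.0454 and 0.0177) and DDOST to 0.014 and 0.025. With filterByExpr, no filter and at least 10 counts in every library, the hexosamine median was 0.62, 0.63 and 0.63, the OST median -0.078, -0.068 and -0.064, and GNPNAT1 turned to -0.031, -0.022 and -0.017. The log2 fold changes of all genes shared with the main fit moved by -0.044, -0.034 and -0.03 in the median. The cause of that common shift was not tested. The count of all genes higher past both thresholds was 1044, 1137 and 930 with these filters, which test more genes, and 189 when the fold was tested against 2, against 552. Without 1 library at a time the hexosamine median ran from 0.62 to 0.70, GNPNAT1 from -0.027 to 0.051 and RPN2 from -0.034 to 0.014. A group then held 1 library, whose spread was taken to be that of the other group.

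The labels number the replicates in both groups, but same-numbered libraries did not deviate together (correlation across genes 0.0753) and share only a number. With the replicate block, DDOST passed the test (-0.06, edgeR adjusted p = 0.0442) and the other 9 genes kept their call. So 3 of the 10 genes were called lower instead of 2, and 4454 of the 12205 tested genes instead of 4379. Of the 6 subunits common to both forms of OST, 4 then fell. The lowest count among the 10 genes was 1612 (PGM3, control), and with 2 libraries a group the spread in each test is borrowed from other genes.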
